A study of Mus musculus with 8 samples.

Results

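The genes described here encode SR proteins and hnRNPs, the most abundant families of general splicing regulators, in GST (gastrocnemius) muscle of WT and STIM1+/D84G mice. They were taken by name, as every listed gene called Srsf followed by a digit and every listed gene whose symbol starts with Hnrn. This rule found 29 of the 15433 listed genes, 10 of them SR genes and 19 hnRNP genes. It used no measured value, though it was chosen with earlier results of these data known. Of the 19 hnRNP entries, 18 are protein-coding genes and 1 is a noncoding entry that shares the name Hnrnpr. Hnrpdl and Hnrpll, listed under older symbols of Hnrnpdl and Hnrnpll, fall outside the rule and are given beside their relatives. In this text SR means serine- and arginine-rich, not sarcoplasmic reticulum.

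RNA was measured by RNA-Seq in 8 libraries, 4 from WT and 4 from STIM1+/D84G mice, which were female and 6 months of age. STIM1+/D84G mice carry 1 germline copy of Stim1, the calcium sensor of the endoplasmic and sarcoplasmic reticulum, with a glycine in place of an aspartate in its EF hand, and the mutant allele is present in every cell type of the muscle. WT mice were C57BL/6 mice matched for age and sex per the methods of the paper, whose results also speak of WT littermates. Neither group received a treatment. Libraries of STIM1+/D84G mice are titled SAX. The paper does not give the strain background of these mice, so any difference of background cannot be told apart from genotype. Each library was taken as 1 mouse, since the number of libraries per genotype is the number of animals stated for this measurement. Reads in listed genes numbered 28698738 to 33661535 in WT and 27481177 to 35018732 in STIM1+/D84G libraries. Values are normalized counts, in which the reads of a gene were divided by the size factor of the library, with no correction for gene length. A gene was called lower or higher when the Benjamini-Hochberg adjusted p of limma, over all 15433 genes, was under 0.05. Whole muscle was sampled, so fewer cells of a type and less RNA per cell cannot be told apart.

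SR proteins carry RNA recognition motifs followed by a domain rich in arginine and serine dipeptides. They bind exonic enhancers and recruit spliceosome components, and phosphorylation of the arginine- and serine-rich domain by the SRPK and CLK kinases sets their activity and their place in the cell. The hnRNPs coat nascent transcripts, often oppose SR proteins at splice sites, and also act in RNA stability, transport and translation. In humans, mutations of HNRNPA2B1 and HNRNPA1 cause an inclusion body myopathy as part of multisystem proteinopathy, and mutations of HNRNPDL cause a limb-girdle muscular dystrophy. Many SR and hnRNP genes control their own level by splicing that creates transcripts read by nonsense-mediated decay. In the mouse annotation, 9 of the 10 SR genes and 8 of the 18 annotated hnRNP genes have at least 1 transcript marked for nonsense-mediated decay, beside 27.2% of the listed protein-coding genes. Counts per gene add all transcripts of a gene, so they do not separate productive transcripts from these.

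Most of these genes differed little between the genotypes. Under the deposited scaling, 8 of 19 hnRNP genes were lower in STIM1+/D84G muscle and 0 were higher. Among the SR genes 2 of 10 were lower and 0 were higher. When libraries were scaled on their totals, 25 of the 29 were higher, beside 9479 of all 15433 genes. As deposited, 24.4% of all genes were lower and 25.0% were higher, 49.4% in either direction. The lower share was thus 42.1% of hnRNP genes and 20.0% of SR genes, the second of which lies near that of all genes. The 8 hnRNP genes were Hnrnpd, Hnrnph1, Hnrnpul1, Hnrnpm, Hnrnph3, Hnrnpul2, Hnrnpa2b1 and Hnrnpab, and the 2 SR genes were Srsf6 and Srsf7. Changes were small, with a median absolute log2 fold change of 0.22 for the 10 lower genes, beside 0.45 over all 7624 genes called in either direction. Over all 29 genes this median was 0.08, and over all listed genes it was 0.28. Median log2 fold changes were -0.04 for SR genes and -0.08 for hnRNP genes, beside 0.01 for all genes.

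**Figure D1:**
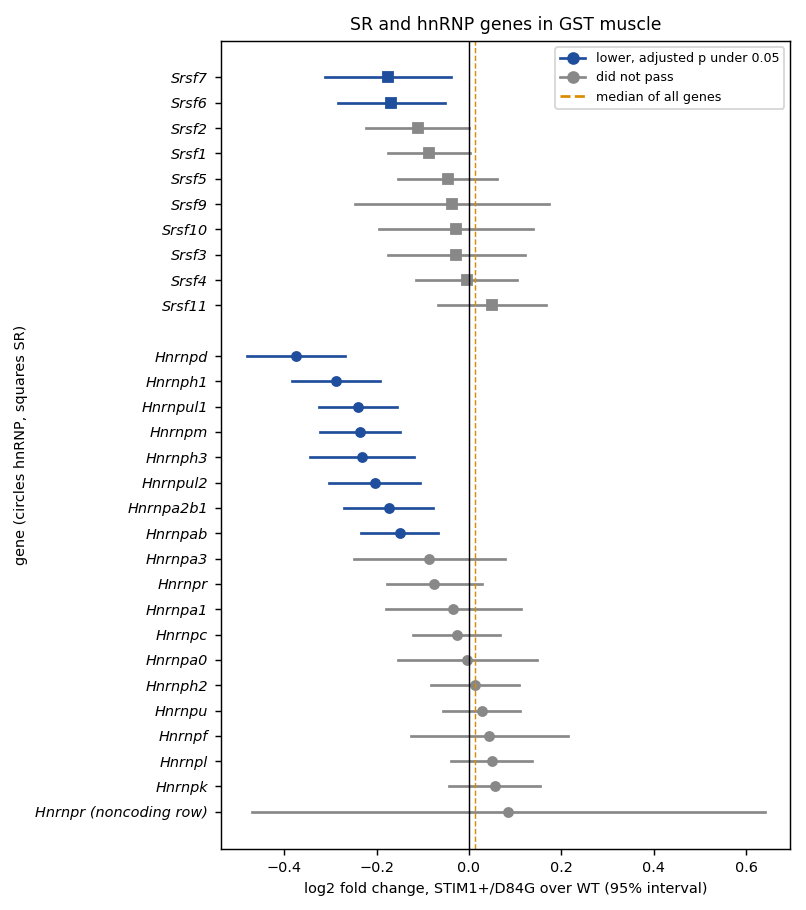
Log2 fold change of STIM1+/D84G over WT (horizontal axis) for the 29 genes, with the 95% interval of limma, for 4 libraries per genotype. Blue marks the 10 genes that were lower, grey those that did not pass, both under the deposited scaling, and the dashed line the median of all genes at 0.01. Fold changes run from -0.37 for Hnrnpd to 0.09 for the noncoding Hnrnpr entry, whose interval is the widest.

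These directions hold for the deposited scaling, which gives the same fit as a median of ratios, and they depend on that choice. The 50 most abundant genes held 51.3% to 52.2% of the normalized counts in WT and 42.5% to 44.9% in STIM1+/D84G libraries, and the sum of normalized counts was 33536636 to 34589111 in WT and 26080391 to 27436601 in STIM1+/D84G libraries. When libraries were scaled on the total of all listed genes, the median over all genes became 0.36 on the log2 scale, and 9479 genes were called higher and 761 lower, against 3859 higher and 3765 lower as deposited. With that scaling 10 SR and 15 hnRNP genes were called higher and 0 lower, and of the 10 lower genes only Hnrnpd stayed below 0, at -0.03 (limma adjusted p = 0.669). Leaving the 50 most abundant genes out of that total set the median of all genes to 0.14 and gave 5318 higher and 2245 lower genes. Here 4 of the 8 hnRNP genes, Hnrnpd, Hnrnph1, Hnrnpul1 and Hnrnpm, and 0 SR genes remained lower, while 4 hnRNP genes (Hnrnpu, Hnrnpk, Hnrnpl and Hnrnph2) and Srsf11 were called higher. As deposited, 9 of 10 SR and 13 of 19 hnRNP genes lay below the median of all genes. A factor per library shifts all genes of that library alike, so the place of a gene relative to this median is fixed by construction under these scalings and is no sign of stability. Quantile normalization, which changes values by rank, left 2 SR and 9 hnRNP genes below the median of all genes.

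**Figure D2:**
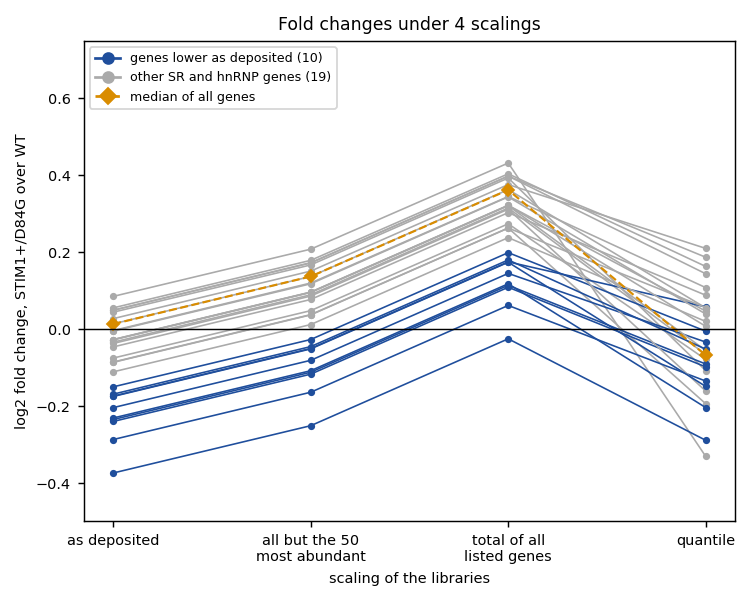
Log2 fold change (vertical axis) of each of the 29 genes under the deposited scaling and 3 others (horizontal axis). Each line is 1 gene, blue for the 10 genes that were lower as deposited and grey for the other 19, and the diamonds give the median of all genes, which moves from 0.01 to 0.14, 0.36 and -0.07. Under the first 3 scalings the lines keep their distance from the diamonds by construction, and under quantile normalization they cross.

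Marker transcripts of some cell types also differed between the genotypes, while the sums of Schwann cell, adipocyte and endothelial markers overlapped. Over all genes, 24.4% were lower and 25.0% higher under the same deposited scaling. All 10 macrophage markers were higher, with summed normalized counts of 2057 to 2456 in WT and 6247 to 10210 in STIM1+/D84G libraries, and Cd68 rose from 66.1 ± 7.59 to 382 ± 35.9 (SD, n = 4). Of 10 markers of fibro-adipogenic progenitors 8 were higher and 1 lower (sums of 27130 to 37390 and 50340 to 62330, Pdgfra higher). Of 4 listed T cell markers 3 were higher (4.82 to 13.01 and 36.5 to 55.6, Cd3e higher), and of 6 satellite cell markers 4 were higher (1212 to 1482 and 1543 to 1919), with Pax7 at 117 ± 32.0 and 126 ± 27.3 (SD, n = 4) not passing. Of 6 Schwann cell markers 1 was higher (3457 to 4441 and 3602 to 5717), as was 1 of 6 adipocyte markers (5170 to 8515 and 6444 to 10070, Adipoq not passing). Of 8 endothelial markers 0 were higher and 2 lower (9658 to 11270 and 8720 to 10310, Pecam1 not passing). Of 10 muscle fiber markers 8 were lower and 2 higher, with sums of 9101000 to 9721000 and 5134000 to 5919000, and Acta1, the skeletal actin that marks the labelled tissue, was abundant in every library. None of these markers was at 0 in all libraries. The part of cell composition in the splicing-factor values was not tested.

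The promoters of 4 genes are shown first, because the results turn on these genes. Hnrnpd had the largest fall of the 29 genes, Hnrnpa2b1 was the most abundant, and Hnrnph1 and Hnrnph2 are close relatives with different values. Each sequence runs 5′ to 3′ from 250 bases before to 50 bases after the transcription start in RefSeq, build GRCm38.p6. Capitals mark matches, on either strand, to the CCAAT box, to the GC box GGGCGG or to the ETS-type motif CCGGAAG.
Hnrnpd, chr5:99978889-99979188, minus strand: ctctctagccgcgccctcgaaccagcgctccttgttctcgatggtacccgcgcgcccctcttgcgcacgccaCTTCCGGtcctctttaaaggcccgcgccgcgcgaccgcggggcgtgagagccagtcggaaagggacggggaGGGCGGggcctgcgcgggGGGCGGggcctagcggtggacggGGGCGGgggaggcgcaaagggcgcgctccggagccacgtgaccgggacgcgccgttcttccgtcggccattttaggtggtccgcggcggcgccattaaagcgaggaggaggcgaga
Hnrnpa2b1, chr6:51469845-51470144, minus strand: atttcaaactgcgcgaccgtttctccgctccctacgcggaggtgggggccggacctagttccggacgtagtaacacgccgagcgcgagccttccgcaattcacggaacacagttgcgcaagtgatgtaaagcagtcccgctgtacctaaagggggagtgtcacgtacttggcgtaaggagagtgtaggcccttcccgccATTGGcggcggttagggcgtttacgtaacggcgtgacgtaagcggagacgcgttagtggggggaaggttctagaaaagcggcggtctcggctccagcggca
Hnrnph1, chr11:50376740-50377039, plus strand: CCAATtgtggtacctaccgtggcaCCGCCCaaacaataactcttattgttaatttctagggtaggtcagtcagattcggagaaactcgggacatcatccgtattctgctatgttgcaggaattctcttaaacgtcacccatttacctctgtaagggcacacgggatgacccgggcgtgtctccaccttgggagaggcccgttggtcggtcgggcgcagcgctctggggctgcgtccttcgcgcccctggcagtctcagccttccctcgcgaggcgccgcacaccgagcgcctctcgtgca
Hnrnph2, chrX:134600929-134601228, plus strand: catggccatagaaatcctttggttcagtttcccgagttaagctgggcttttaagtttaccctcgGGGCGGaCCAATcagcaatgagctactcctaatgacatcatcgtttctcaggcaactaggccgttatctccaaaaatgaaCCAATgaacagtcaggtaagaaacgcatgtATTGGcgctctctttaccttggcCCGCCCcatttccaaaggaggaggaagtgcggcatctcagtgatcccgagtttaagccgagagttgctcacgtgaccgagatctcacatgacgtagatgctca
Hnrnph1 is shown at the first of 5 starts in the table and Hnrnpa2b1 at the first of 2.

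Of the 29 genes 27 were matched to the RefSeq promoter table, all 10 SR genes and 17 hnRNP genes. Their windows had a median GC content of 65%, with a range of 48.3% to 79.7%, beside 52.7% for all 27025 promoters, and a median of 31 CpG dinucleotides beside 7. The TATA box TATAAA, searched on both strands like the other motifs, was found in 2 SR and 2 hnRNP promoters and in 14.2% of all promoters. The CCAAT box was found in 4 of 10 SR and 12 of 17 hnRNP promoters and in 37.9% of all promoters. The GC box GGGCGG was found in 9 SR and 12 hnRNP promoters and in 35.9% of all. The ETS-type motif CCGGAAG was found in 4 SR and 2 hnRNP promoters and in 9.12% of all. The NRF1 palindrome was found in 0 of the 27 and in 0.977% of all. No motif searched contains another. A match is a description of the letters in these windows, which differ in GC content between the sets, and is no evidence of binding.

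The SR genes as a family were nearly level between the genotypes under the deposited scaling. With scaling on the total 10 of 10 were higher, beside 9479 of all 15433 genes. Their median log2 fold change was then 0.31, beside 0.36 for all genes. Summed normalized counts of the 10 SR genes were 13975 to 14771 in WT and 13279 to 14260 in STIM1+/D84G libraries, and the ranges overlap. All 10 SR genes had overlapping ranges, beside 23.0% of all genes whose STIM1+/D84G libraries all lay below the WT libraries and 23.0% whose libraries all lay above. Their log2 fold changes ran from -0.17 to 0.05, and 9 were below 0. Srsf5 was the most abundant SR transcript, at 1886 ± 98.7 normalized counts per kilobase of annotated exons in WT and 1826 ± 82.1 in STIM1+/D84G muscle (SD, n = 4). It made up 19.6% to 23.0% of the summed SR counts in WT and 21.6% to 22.4% in STIM1+/D84G libraries.

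Srsf6, an SR protein with a pair of RNA recognition motifs that is also called SRp55, was lower. Its WT libraries counted 2025, 2061, 1953 and 2210 and its STIM1+/D84G libraries 1963, 1767, 1876 and 1735. STIM1+/D84G replicate 1 overlaps the lowest WT library, and the other 3 lie below all WT libraries. The log2 fold change was -0.17 ± 0.05 (SE, n = 4 per genotype, limma adjusted p = 0.0203, exact permutation p = 0.0571). The call was lost without WT replicate 4 (adjusted p = 0.0550), without STIM1+/D84G replicate 2 (0.0581) and without STIM1+/D84G replicate 4 (0.0624).

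Srsf7, also called 9G8, which carries a zinc knuckle beside its RNA recognition motif, was lower as well. Its counts were 737, 750, 621 and 710 in WT and 609, 613, 641 and 628 in STIM1+/D84G libraries. WT replicate 3 lies among the STIM1+/D84G libraries and the other 3 WT libraries above them. The log2 fold change was -0.17 ± 0.06 (SE, n = 4 per genotype, limma adjusted p = 0.0363, exact permutation p = 0.0857). With the replicate number as a block the adjusted p was 0.0520, and 1 SR gene in place of 2 was then called. Leaving out any 1 library other than WT replicate 3 also ended the call, with adjusted p of 0.0517 or more, while without WT replicate 3 the log2 fold change was -0.23 (adjusted p = 0.00324). Without WT replicate 3, Srsf2 was called too (adjusted p = 0.0264) and 3 SR genes were lower in all.

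Srsf2 (SC35) and Srsf1 (SF2/ASF), the most studied SR proteins, did not pass. Srsf2 counted 2543, 2489, 2276 and 2568 in WT and 2405, 2343, 2247 and 2145 in STIM1+/D84G libraries, a log2 difference of -0.11 (95% interval -0.22 to 0.00). Srsf1 counted 2342, 2314, 2249 and 2414 in WT and 2201, 2299, 2166 and 2113 in STIM1+/D84G libraries, a log2 difference of -0.09 (95% interval -0.18 to 0.00). Both adjusted p values lay between those of the called genes and the rest of the family, at 0.0933 and 0.0991 with limma. Srsf3, Srsf4, Srsf5, Srsf9, Srsf10, a splicing repressor when dephosphorylated, and Srsf11 had log2 differences of -0.05 to 0.05 with adjusted p of 0.462 to 0.945. Srsf4 had the narrowest STIM1+/D84G values of the family, 823 to 837, beside 787 to 899 in WT. Of the exons of Srsf4 43.0% overlap exons of Gm12992, and of those of Srsf2 25.3% overlap Mettl23 and Mfsd11, all on the opposite strand. Whether the counting used strand is not given in the sources used here, so these counts may mix reads.

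The hnRNP genes as a family summed to 50036 to 52311 normalized counts in WT and 46140 to 46751 in STIM1+/D84G libraries. These ranges do not overlap under the deposited scaling. With scaling on the total 15 of these genes were higher, beside 9479 of all 15433 genes. The summed count is a description, and the gene that weighs most in it is Hnrnpa2b1, with 27.2% to 29.6% of it in WT and 26.9% to 28.4% in STIM1+/D84G libraries. Of the 19 genes 9 (47.4%) had STIM1+/D84G libraries all below the WT libraries, beside 23.0% of all genes, and 0 had them all above. These were the 8 lower genes and the protein-coding Hnrnpr, which did not pass the test. Each of the 8 stayed lower in all 8 fits that left out 1 library, with the replicate block, with the number in the column names as a covariate, and with edgeR and DESeq2 on the recovered reads. For each of them the exact permutation p was 0.029, the smallest that 70 assignments of 4 against 4 allow. Groups that do not overlap always give this p, so it restates the lack of overlap and adds no support. A number in the column names, whose meaning the sources do not give, is the same in WT replicates 1 and 2 and STIM1+/D84G replicate 1 and differs from that of the other 5. Within both numbers, all 10 lower genes had a difference below 0. These genes were called from the same libraries, so the shared sign is in part built in and is no separate check.

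**Figure D3:**
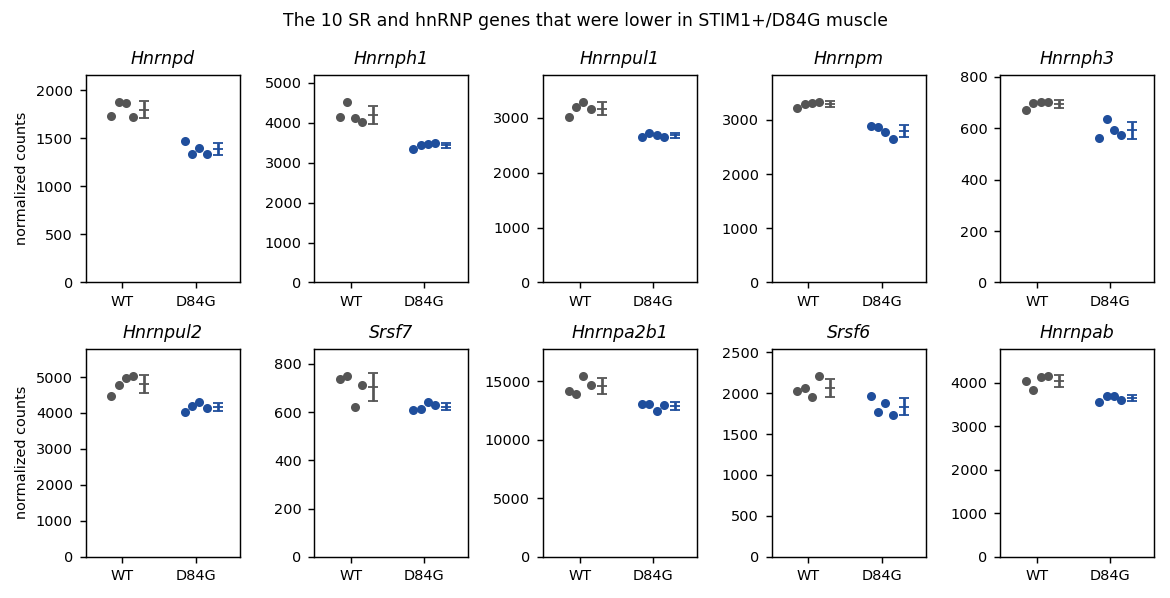
Normalized counts (vertical axes, starting at 0) of the 10 genes that were lower under the deposited scaling, for the 4 WT libraries (grey points) and the 4 STIM1+/D84G libraries (blue points), with the mean and SD beside each group. When scaled on the total, 9 of these genes lay above 0 in log2 fold change, beside a median of 0.36 over all genes. The points of the 8 hnRNP genes do not overlap between the genotypes, and those of Srsf6 and Srsf7 do.

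Hnrnpd and its relatives bind AU-rich and related elements in RNA. Hnrnpd encodes AUF1, which promotes decay of transcripts with AU-rich elements, and mice without it develop a myopathy. It counted 1725, 1879, 1863 and 1718 in WT and 1467, 1334, 1402 and 1340 in STIM1+/D84G libraries. Every STIM1+/D84G library lies below every WT library, and means fell by 22.9%, from 1796 ± 86.4 to 1386 ± 62.2 (SD, n = 4). The log2 fold change was -0.37 ± 0.05 (SE, limma adjusted p = 8.92e-05), the largest of the 29 genes under the deposited scaling. The gene lies on chromosome 5 (99955935 to 99978938, minus strand, GRCm38), and Hnrpdl, its closest relative, lies 54638 bases away on the same strand (100033577 to 100039664).

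Hnrpdl, the gene named Hnrnpdl in the current annotation, was also lower. It counted 3088, 3028, 2934 and 2916 in WT and 2507, 2527, 2426 and 2482 in STIM1+/D84G libraries, with no overlap. The log2 fold change was -0.27 ± 0.04 (SE, n = 4 per genotype, limma adjusted p = 0.000115). Hnrnpab, which binds single-stranded nucleic acids and is the third gene of this group, counted 4051, 3836, 4124 and 4156 in WT and 3554, 3700, 3699 and 3610 in STIM1+/D84G libraries. Its ranges do not overlap, and the log2 fold change was -0.15 ± 0.04 (SE, n = 4 per genotype, limma adjusted p = 0.00694). Of the exons of Hnrnpab 29.1% overlap exons of Phykpl on the opposite strand, and whether the counting used strand is not given in the sources used here, so reads of the pair may be mixed.

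Hnrnph1, Hnrnph2, Hnrnph3 and Hnrnpf encode proteins that bind runs of guanines near exons and regulate splice site and poly(A) site choice. Hnrnph1 counted 4154, 4529, 4109 and 4007 in WT and 3350, 3439, 3478 and 3486 in STIM1+/D84G libraries. The lowest WT library lies well above the highest STIM1+/D84G library, and the mean fell by 18.1%, with a log2 fold change of -0.29 ± 0.04 (SE, n = 4 per genotype, limma adjusted p = 0.000258). Its share of the summed hnRNP counts was 7.86% to 8.87% in WT and 7.25% to 7.56% in STIM1+/D84G libraries.

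Hnrnph3, a shorter member of the group, counted 670, 697, 702 and 703 in WT and 563, 637, 591 and 573 in STIM1+/D84G libraries. These ranges do not overlap either, and the log2 fold change was -0.23 ± 0.05 (SE, n = 4 per genotype, limma adjusted p = 0.00324). Hnrnph2, an X-linked gene whose protein is nearly identical to that of Hnrnph1, counted 734, 752, 752 and 763 in WT and 733, 779, 739 and 781 in STIM1+/D84G libraries. The ranges of the groups overlap, with a log2 difference of 0.01 (95% interval -0.08 to 0.11, limma adjusted p = 0.815). Hnrnpf counted 178 to 201 in WT and 186 to 213 in STIM1+/D84G libraries, a log2 difference of 0.04 (95% interval -0.13 to 0.21). Of the 50-base stretches of Hnrnpf transcripts 61.9% also occur in transcripts of other genes, pseudogenes among them, so its count is uncertain, and the same holds in part for Hnrnph2 at 15.9%.

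Ratios of related genes within a library do not depend on a size factor per library, but they do change under quantile normalization. Of 17 pairs 16 had both genes listed and were compared with a two-sided exact permutation test of the log2 ratio. None passed after adjustment over the 16 pairs, where the smallest adjusted p that occurred was 0.0762, while 6 pairs did not overlap between the genotypes and had p = 0.029, the smallest the exact test allows. With 6 pairs at this floor, their adjusted p in this test is 0.0762 whatever the size of their shifts. That none passed is therefore no result about the ratios. This test treats the libraries as unpaired, and within the 4 pairs of same-numbered libraries the exact test has 16 sign assignments and a smallest two-sided p of 0.125. Hnrnph1 counts were 5.66, 6.02, 5.46 and 5.25 times those of Hnrnph2 in WT and 4.57, 4.42, 4.70 and 4.47 times in STIM1+/D84G libraries, a log2 difference of -0.30 that became -0.19 under quantile normalization. Relative to Hnrnpf, Hnrnph1 counted 20.8 to 22.5 times as much in WT and 16.3 to 18.7 times in STIM1+/D84G libraries, a log2 difference of -0.33 that became -0.027 under quantile normalization. Hnrnph1 and Hnrnph3 kept a ratio of 5.70 to 6.50 in WT and 5.40 to 6.09 in STIM1+/D84G libraries, which overlap.

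Hnrnpd relative to Hnrnpab was 0.413 to 0.490 in WT and 0.361 to 0.413 in STIM1+/D84G libraries, a log2 difference of -0.22, and the lowest WT ratio (0.41346) lay only just above the highest STIM1+/D84G ratio (0.41283). The ratio of Hnrnpd to Hnrnpdl overlapped between the genotypes, at 0.559 to 0.635 and 0.528 to 0.585. The other 3 pairs without overlap were Hnrnpu against Hnrnpul1, Hnrnpu against Hnrnpul2 and Hnrnpr against Syncrip, with log2 differences of 0.27, 0.23 and 0.23. Quantile normalization, tried on the pairs after the data were seen, gave 0.31, 0.24 and 0.12 for these 3 and -0.28 for Hnrnpd against Hnrnpab. As 1 library at a time was left out, all 6 differences kept their sign, and the narrowest range was that of Hnrnpu against Hnrnpul1, from 0.25 to 0.28. All 4 SR pairs overlapped, with log2 differences of -0.05 for Srsf1 against Srsf9, 0.15 for Srsf3 against Srsf7, 0.16 for Srsf4 against Srsf6 and 0.04 for Srsf4 against Srsf5.

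**Figure D4:**
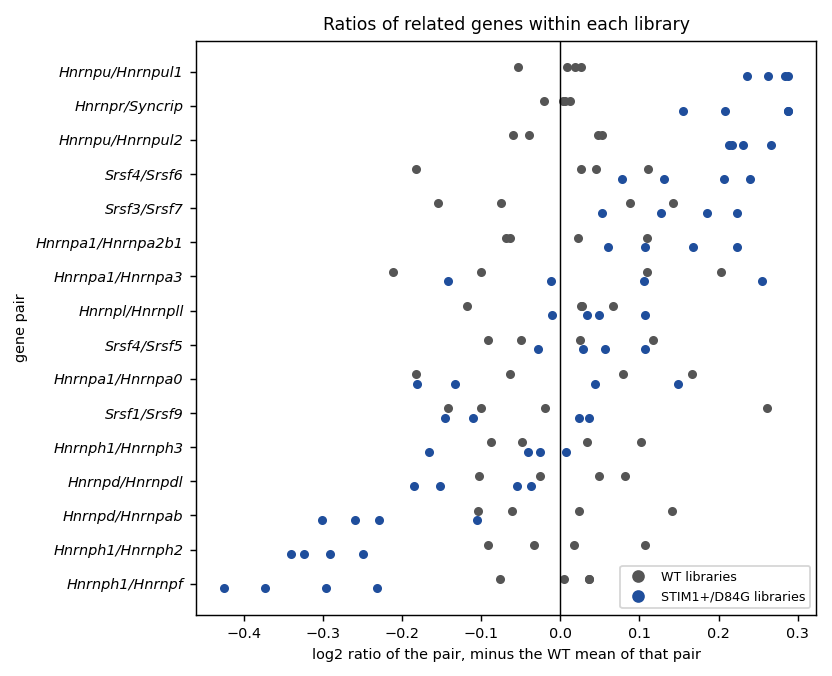
Log2 ratio of 2 related genes in each library, minus the WT mean of that pair (horizontal axis), for 16 pairs (vertical axis), with WT libraries in grey and STIM1+/D84G libraries in blue. In 6 pairs the colors do not overlap, 3 with blue to the left (Hnrnph1 over Hnrnpf, Hnrnph1 over Hnrnph2, Hnrnpd over Hnrnpab) and 3 with blue to the right. No pair passed the adjusted test, which 6 pairs at the smallest possible p cannot pass.

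Hnrnpu, Hnrnpul1 and Hnrnpul2 encode large proteins with an SAP domain that bind RNA and chromatin, and the U-like proteins also act at sites of DNA double-strand breaks. Hnrnpul1 counted 3006, 3190, 3291 and 3155 in WT and 2641, 2726, 2692 and 2642 in STIM1+/D84G libraries. The groups do not overlap, and the log2 fold change was -0.24 ± 0.04 (SE, n = 4 per genotype, limma adjusted p = 0.000370). Hnrnpul2 counted 4463, 4779, 4960 and 5030 in WT and 4029, 4207, 4296 and 4146 in STIM1+/D84G libraries, again without overlap, with a log2 fold change of -0.20 ± 0.04 (SE, n = 4 per genotype, limma adjusted p = 0.00294). Hnrnpu, also called scaffold attachment factor A, counted 4861, 5190, 5066 and 5068 in WT and 4966, 5314, 5233 and 5060 in STIM1+/D84G libraries. Its groups overlap, with a log2 difference of 0.03 (95% interval -0.06 to 0.11). The ratio of Hnrnpu to Hnrnpul1 was 1.54 to 1.63 in WT and 1.88 to 1.95 in STIM1+/D84G libraries, and to Hnrnpul2 it was 1.01 to 1.09 and 1.22 to 1.26.

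The A/B proteins form the core of hnRNP particles and bind UAG-containing sites. Hnrnpa2b1, which encodes hnRNP A2 and B1 and also acts in RNA transport, had the highest level per kilobase of exons among the 28 annotated genes, at 5984 ± 282 in WT and 5302 ± 132 in STIM1+/D84G muscle (SD, n = 4). Its normalized counts were 14171, 13911, 15463 and 14714 in WT and 13099, 13079, 12426 and 13020.0 in STIM1+/D84G libraries. The groups do not overlap, and the mean fell by 11.4%, with a log2 fold change of -0.17 ± 0.04 (SE, n = 4 per genotype, limma adjusted p = 0.00665), which turned to 0.06 (adjusted p = 0.264) under quantile normalization and 0.18 (adjusted p = 0.00602) under total scaling. Hnrnpa1 counted 406 to 472 in WT and 402 to 456 in STIM1+/D84G libraries, Hnrnpa3 234 to 269 and 218 to 254, and Hnrnpa0 1614 to 2019 and 1765 to 1953. All 3 overlap, and their adjusted p values were 0.698, 0.365 and 0.971. Processed pseudogenes are many for Hnrnpa1 and Hnrnpa3, with 28.2% and 27.1% of their 50-base stretches shared with other genes, so their low counts are uncertain.

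**Figure D5:**
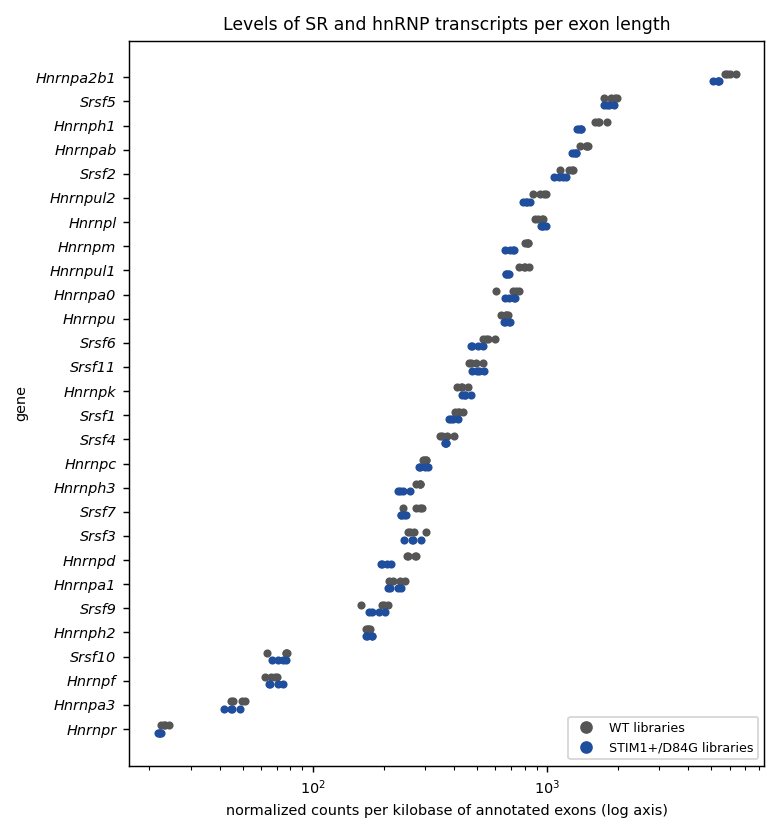
Normalized counts per kilobase of annotated exons (horizontal axis, log scale) in each of the 4 WT (grey) and 4 STIM1+/D84G (blue) libraries, for the 28 genes with annotated exons (vertical axis). Levels run from 23.3 for Hnrnpr to 5984 for Hnrnpa2b1 in WT means, and the differences between genotypes are small beside those between genes. The annotated exons of Hnrnpr are the longest, at 21483 bases, and its low place depends on that length. Its mean of 501 normalized counts in WT lay above that of Hnrnpa1 at 438.

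Hnrnpm, an abundant hnRNP that binds GU-rich RNA, counted 3213, 3296, 3321 and 3338 in WT and 2895, 2874, 2776 and 2648 in STIM1+/D84G libraries. Its WT libraries lie close together and above all STIM1+/D84G libraries, with a log2 fold change of -0.24 ± 0.04 (SE, n = 4 per genotype, limma adjusted p = 0.000511). Of its exons 14.7% overlap exons of March2 on the same strand, so reads there cannot be assigned to 1 of the genes from the counts. Hnrnpr, an hnRNP related to Syncrip, counted 484, 519, 501 and 498 in WT and 481, 479, 472 and 468 in STIM1+/D84G libraries. The highest STIM1+/D84G library lies just below the lowest WT library, and the test did not pass (log2 difference -0.08, 95% interval -0.18 to 0.03, limma adjusted p = 0.208). Relative to Syncrip, which was lower at 1666 ± 83.1 beside 2064 ± 43.1 in WT (SD, n = 4), Hnrnpr was 0.239 to 0.245 in WT and 0.270 to 0.296 in STIM1+/D84G libraries. The noncoding Hnrnpr entry had 13.3 to 22.9 normalized counts in WT and 15.7 to 25.0 in STIM1+/D84G libraries, from 64 and 84 reads, too few for a narrow interval.

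Hnrnpk, with KH domains that bind C-rich RNA, Hnrnpl, which binds CA repeats, and Hnrnpc, which binds uridine tracts and masks cryptic exons, did not pass. Hnrnpk counted 1690 to 1876 in WT and 1782 to 1944 in STIM1+/D84G libraries, with a log2 difference of 0.06 (95% interval -0.04 to 0.15). Hnrnpl counted 2363 to 2566 and 2525 to 2647, with a log2 difference of 0.05 (95% interval -0.04 to 0.14). Hnrnpc counted 1194 to 1238 and 1149 to 1259, with a log2 difference of -0.03 (95% interval -0.12 to 0.07). Hnrpll, the relative of Hnrnpl known for CD45 splicing in lymphocytes, counted 650 to 742 and 659 to 721, with a log2 difference of 0.00 (95% interval -0.11 to 0.12).

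Several of these genes share a start region with a neighbor on the other strand. Lrrc40 begins 23 bases from Srsf11 and was lower (log2 fold change -0.24, limma adjusted p = 0.0103), while Srsf11 was at 0.05 and did not pass. Gla, the gene of lysosomal alpha-galactosidase, begins 54 bases from Hnrnph2 and was lower (-0.40, adjusted p = 0.0185), and Hnrnph2 was at 0.01. Cbx5, which encodes a heterochromatin protein, begins 616 bases from Hnrnpa1 and was lower (-0.14, adjusted p = 0.0198), and Enoph1, 321 bases from Hnrpdl, was lower like its neighbor (-0.34, adjusted p = 0.00201). Cbx3 beside Hnrnpa2b1, Pbld2 beside Hnrnph3 and Ttc9c beside Hnrnpul2 did not pass, with adjusted p of 0.299, 0.234 and 0.275. The difference between neighbors was not tested.

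Enzymes and carriers that act on these proteins also held lower genes under the deposited scaling, beside 24.4% of all genes lower and 25.0% higher. The lists given here and below were chosen with earlier results of these data known. Of 12 SR protein kinases and phosphatase partners 5 (41.7%) were lower and 0 higher, with a median log2 fold change of -0.08. Dyrk1a, a kinase of splicing factors, went from 3766 ± 155 to 2904 ± 143 (SD, n = 4, log2 fold change -0.38), Clk3 had a log2 fold change of -0.33, Srpk2 of -0.28 and Prpf4b of -0.21. Of 6 import receptors and export partners 4 (66.7%) were lower and 0 higher, with a median of -0.13. Tnpo3, the transportin of phosphorylated SR proteins, was at -0.14, and Tnpo2, a transportin of hnRNPs, at -0.16, with Ipo8 at -0.21 and Kpnb1 at -0.13. Of 8 arginine methyltransferases, which methylate hnRNPs, 3 (37.5%) were lower and 1 (12.5%) higher, with Carm1 at -0.42, Prmt7 at -0.26, Prmt5 at -0.18 and Prmt2 at 0.58.

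Relatives of both families behaved unevenly. Of 28 SR-like and SR-related factors 16 (57.1%) were lower and 0 higher, beside 24.4% and 25.0% of all genes, with a median of -0.17. Srrm2, a large scaffold of nuclear speckles, went from 13088 ± 680 to 10197 ± 448 (SD, n = 4, log2 fold change -0.36), and Rsrc1, Scaf8 and Thrap3 had log2 fold changes of -0.36, -0.31 and -0.28. Of 28 hnRNPs and related RNA-binding proteins with other gene names 10 (35.7%) were lower and 5 (17.9%) higher, with a median of -0.05. Ybx1, a cold-shock domain protein of mRNA particles, counted 11842 to 12029 in WT and 7504 to 7948 in STIM1+/D84G libraries, a log2 fold change of -0.64. Ptbp3, a pyrimidine tract binder, Pcbp4, a poly(C) binder, and Cirbp, a cold-inducible RNA-binding protein, were higher, with log2 fold changes of 0.43, 0.36 and 0.35.

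Of 37 genes of the core spliceosome 11 (29.7%) were lower and 2 (5.41%) higher, beside 24.4% and 25.0% of all genes, with a median of -0.07. Prpf8 and Snrnp200, both at the heart of the tri-snRNP, had log2 fold changes of -0.39 and -0.35, Ddx23 of -0.38 and Sf1, the branch point binding protein, of -0.32, while Sf3b6 and Sf3b3 were at 0.18 and 0.17. Of 15 nonsense-mediated decay factors 5 (33.3%) were lower and 0 higher, with a median of -0.08, among them Upf3a at -0.48, Upf2 at -0.41 and Upf1 at -0.25. The lists share the dependence on scaling. With the total of all listed genes 0 of the kinases, SR-like factors, import receptors, methyltransferases, decay factors or core spliceosome genes and 1 of the other hnRNPs were lower, while 8, 18, 5, 6, 11, 26 and 22 were higher. Of all 15433 genes, 761 were then lower and 9479 higher. With all but the 50 most abundant genes, 3 kinases, 6 SR-like factors, 0 import receptors, 2 methyltransferases, 4 decay factors, 6 core spliceosome genes and 4 other hnRNPs were lower, and 2, 2, 1, 2, 4, 7 and 10 were higher. Here 2245 of all genes were lower and 5318 higher. Quantile normalization left 3, 11, 1, 3, 5, 10 and 5 lower and 1, 0, 0, 1, 1, 2 and 8 higher, beside 4154 lower and 3112 higher of all genes.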

How the data were processed

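RNA was measured in 4 WT and 4 STIM1+/D84G libraries of GST muscle. Libraries were made with the Kapa Stranded mRNA Kit and read as 50-base pairs per the methods, whereas the labels give a SMARTer kit, and the submitters' processing notes give mm10. The aligner, counter and annotation are not given in the sources used here. The signal values deposited by the authors are reads of each gene over a size factor of the library, although the table is named after RPKM, and 100% of values came out as whole reads (tolerance 0.01). The value of 1 read was 1.02 to 1.21 in WT and 0.783 to 0.964 in STIM1+/D84G libraries. The authors' own comparison columns (fold, log2 fold, standard error, Wald statistic and p values) were not used. The STIM1+/D84G libraries carry a strain label, matched to the genotype through the series title.

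The fit used limma (version 3.58.1, R version 4.3.3), lmFit with genotype as the only term and eBayes with a trend, on log2 of the value plus 0.1, which slightly understates changes of low genes, with Benjamini-Hochberg adjustment over 15433 genes. A minimum mean of 0.5 removed 0 genes, and all 29 SR and hnRNP genes were tested. The test was chosen when the values were taken for RPKM. Alternatives were pseudocounts of 1 and 0.01, no minimum mean and one of 2, 4 scalings, the replicate number as a block, the number in the column names as a covariate, leaving out each library, and edgeR 4.0.16 and DESeq2 1.42.0 on the recovered reads. Same-numbered libraries correlated at 0.213, 0.161, 0.150 and 0.123 after group means were removed. Since each was over 0.1, the replicate number was tried as a block and as a pairing. Some differently numbered libraries correlated as much or more, WT 2 with STIM1+/D84G 1 at 0.371, WT 4 with STIM1+/D84G 3 at 0.222 and WT 3 with STIM1+/D84G 4 at 0.188. These values do not establish a pairing by replicate number. The number in the column names also differs between WT 2 and STIM1+/D84G 2. Quantile normalization of the gene pairs and an exact test within numbered pairs were added after the data were seen. The procedure was also run on simulated data scaled with their known size factors, so that run does not bear on the choice of scaling.

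Coordinates, exon lengths and transcript classes come from GENCODE vM21 (GRCm38, the same assembly as mm10), matched by identifier for 15289 genes, and promoters from RefSeq (GRCm38.p6). Exon lengths, and so levels per kilobase, use transcripts tagged basic in that annotation where a gene has any. Percentages of exons that overlap other genes use all annotated exons. All members and lists were chosen with earlier results of these data known. Members may all be named, of each pathway list at most 4 called genes with the greatest change (and the greatest in each direction), and of each marker list the first. Individual values of 2 list genes are not reported here. Other work used Python (3.11.15) with numpy 2.4.6, pandas 2.3.3 and matplotlib 3.10.9.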

Additional observations from a re-analysis of the deposited data

Results flagged for a closer look

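Of 62 groups of 4 libraries examined (29 SR and hnRNP genes, Hnrpdl and Hnrpll, in both genotypes), 2 held a library far from the other 3, and chance alone gives about 1 in 20. Srsf10 counted 372.748 in WT replicate 1, below the nearest WT library at 446.726, a gap of 0.93 of the range of the group. Hnrnpa2b1 counted 12426.2 in STIM1+/D84G replicate 3, below the nearest library of that genotype at 13020.0, a gap of 0.882 of the range. Without WT replicate 1 or without STIM1+/D84G replicate 3, Srsf10 still did not pass and Hnrnpa2b1 was still lower.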

How the results depend on the processing

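Pseudocounts, a minimum mean of 2, edgeR and DESeq2 changed no call of an SR or hnRNP gene. A median of ratios gave the same fit as the deposited scaling, so it could not change a call. The same holds for no minimum mean, since a minimum of 0.5 removed 0 genes. The other scalings did change calls. Over all genes, 3859 higher and 3765 lower became 9479 and 761 with the total of all listed genes. They became 5318 and 2245 with all but the 50 most abundant, and 3112 and 4154 with quantile normalization. SR genes lower numbered 2 as deposited and 0 with all but the 50 most abundant, the total and quantile normalization, and SR genes higher 0, then 1, 10 and 1. Lower hnRNP genes numbered 8, then 4, 0 and 5, and higher ones 0, then 4, 15 and 3. With the replicate block, and with the number in the column names as a covariate, 1 SR gene was lower (Srsf7 was lost, adjusted p = 0.0520 and 0.0547), and no other call of these genes changed. Leaving out 1 library gave 0 to 3 lower SR genes. Of the 16 gene pairs 0 passed the exact test after adjustment as deposited, with either other pseudocount and without each library in turn (smallest adjusted p 0.0762), and 0 had an unadjusted p under 0.05 within the numbered pairs, where 0.125 is the smallest possible. With so few libraries neither test could bring a few pairs under 0.05, so these counts are no result about the ratios. Under quantile normalization 4 pairs had a difference of the other sign, all pairs that overlapped as deposited.

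With all but the 50 most abundant, medians became 0.0817 for SR and 0.0482 for hnRNP genes, with the total 0.31 and 0.27, and with quantile normalization 0.0136 and -0.0658. Log2 fold changes that changed sign under the total were those of Srsf1 (0.26), Srsf2 (0.24), Srsf3 (0.32), Srsf4 (0.34), Srsf5 (0.30), Srsf6 (0.18), Srsf7 (0.17), Srsf9 (0.31), Srsf10 (0.32), Hnrnpa0 (0.34), Hnrnpa1 (0.32), Hnrnpa2b1 (0.18), Hnrnpa3 (0.26), Hnrnpab (0.20), Hnrnpc (0.32), Hnrnph1 (0.0617), Hnrnph3 (0.12), Hnrnpm (0.11), Hnrnpr (0.27), Hnrnpul1 (0.11), Hnrnpul2 (0.14) and Hnrpdl (0.0821). With quantile normalization Hnrnpa2b1 (0.058), Srsf1 (0.056), Srsf2 (0.02), Srsf3 (0.0073), Srsf4 (0.039), Srsf5 (0.088), Hnrnpa0 (0.108) and Hnrnpc (0.047) rose above 0. Hnrnpf (-0.108) and the noncoding Hnrnpr entry (-0.331) fell below 0, and none of these passed under that normalization. Which scaling is nearer to RNA per fiber was not tested. With 4 libraries per genotype, differences such as those of Srsf1 and Srsf2 were not resolved.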
